A study of Homo sapiens with 17 samples.

Results

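MIR320A, MIR484 and MIR3615 are human microRNA hairpins that are described as beginning at a transcription start site. Most microRNAs are cut out of a long primary transcript by the nuclease Drosha with its partner DGCR8, and the resulting hairpin is then opened by Dicer. A hairpin whose 5′ end is the first base of the transcript carries a 7-methylguanosine cap, needs no Drosha cut, leaves the nucleus bound to exportin 1 and goes to Dicer directly. The capped 5p strand is then a poor substrate for 5′ adapter ligation, and miR-320a is known mainly from its 3p strand.

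The 3 hairpins were found by position on hg19, each window widened by 10 nt on both sides and read on the hairpin's own strand for alignments of 16 to 42 nt. MIR320A is at chr8:22102475-22102556 on the minus strand (82 nt), MIR484 at chr16:15737151-15737229 on the plus strand (79 nt), and MIR3615 at chr17:72744752-72744838 on the plus strand (87 nt). These windows held 195 of the 14415896 distinct alignments listed in the series. MIR320A had 137 of them, MIR484 had 25 and MIR3615 had 33.

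The cells were K562, an erythroleukemia line of human origin, with an inducible short hairpin RNA against Drosha, and their small RNA was sequenced. The cells received doxycycline (Dox) at 1 µg/mL, or water in parallel wells, for 3, 13 or 31 d. All of them, the water cultures included, carried the hairpin construct, and the labels name no separate clones. Dox and water libraries formed 2 pairs at 3 d, numbered 1 and 3, then 3 pairs at 13 d and 3 more at 31 d. The labels describe these as independent biological replicates, and each pair has 1 deposited table, 8 in all. Each table gives the authors' ratio of 1 library to the other, and neither the tables nor the labels state which is the numerator. Values are therefore numerator over denominator on the log2 scale, and the same orientation is assumed for the 8 tables. If the numerator is the Dox library, a positive value means more RNA with Dox. Reads per library were not used, since the columns that hold them carry no library name, so the depth behind a ratio is unknown here.

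The sequences of MIR484 and MIR3615 are shown because the recurrent alignments fall on a single strand of each hairpin. They are from RefSeq (GRCh38.p14), 5′ to 3′, first the hairpin with the annotated mature microRNA in capitals, then the mature microRNA with its seed (bases 2 to 8) in capitals, then the longest form with a ratio above 0 in all 8 tables, with the bases beyond the annotated 3′ end in capitals.
MIR484 hairpin: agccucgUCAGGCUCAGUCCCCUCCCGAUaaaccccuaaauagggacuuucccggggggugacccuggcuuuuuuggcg
miR-484: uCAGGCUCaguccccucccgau
MIR484 longest form: ucaggcucaguccccucccgauAAAC
MIR3615 hairpin: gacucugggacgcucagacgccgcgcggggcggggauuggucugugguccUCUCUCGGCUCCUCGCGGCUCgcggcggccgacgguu
miR-3615: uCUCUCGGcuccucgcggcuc
MIR3615 longest form: ucucucggcuccucgcggcucGCGG

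Of 2370 mature microRNAs in that reference table, 2 others had the miR-484 seed, miR-3155a and miR-3155b, and none had the miR-3615 seed. The MIR3615 hairpin was 73.6% G and C, above 1483 of the 1560 hairpins in the table, and the MIR484 hairpin was 59.5%, against a median of 52.1% over all hairpins. Folded with RNAfold, MIR3615 had a minimum free energy of -45.4 kcal/mol and MIR484 had -32.5 kcal/mol. In these folds 17 of the 21 bases of miR-3615 and 15 of the 22 bases of miR-484 were paired.

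The annotations place the hairpins at gene starts to different degrees. In RefSeq the gene NHERF1 (SLC9A3R1), which encodes a scaffold protein, begins at base 16 of the MIR3615 hairpin. The nearest GENCODE v29 transcript start of that gene lay 39 nt past the hairpin's 5′ end, and exons of 2 of its transcripts overlapped the hairpin. An exon of the antisense gene AC016888.1 also overlapped it on the other strand. For MIR484, 1 GENCODE transcript of NDE1, which encodes a dynein regulator, began 27 nt before the hairpin and covered it with an exon, while the RefSeq start of NDE1 lay 10 nt past the hairpin's last base. MARF1 began 128 nt before the MIR484 hairpin on the opposite strand. MIR320A overlapped no other annotated transcript. The RNA polymerase III subunit gene POLR3D began 61 nt before it on the opposite strand, and the nearest same-strand start, of PHYHIP, was 12702 nt away. These distances are within GRCh38, and the alignments carry no information on caps.

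Each hairpin gave recurrent alignments from mainly 1 strand. At MIR484, 23 of 25 alignments lay in the 5p arm, the side of the hairpin before its midpoint. Of these, 18 had a ratio above 0 in at least 1 table and 7 in all 8. The 2 alignments in its 3p arm were each listed in 1 table, with a ratio of 0. At MIR3615 the arms were the other way round. Its 3p arm held 31 of 33 alignments, with 5 above 0 in all 8 tables, and its 2 alignments in the 5p arm were each listed in 1 table with a ratio of 0. A ratio of 0 means that the numerator had no reads.

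MIR320A had alignments in both arms, with nearly all of the recurrent ones in its 3p arm. Its 3p arm held 88 alignments, 29 of them above 0 in all 8 tables. Its 5p arm held 49, of which 1 was above 0 in all 8, a form from base 28 to 47 that crosses the midpoint. These are counts of distinct alignments, not of reads. Sequences of the miR-320 family occur in several genomic copies, and no source used here says where reads matching several of them were counted, so the MIR320A values may include reads of its relatives.

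Among alignments above 0 in every table, the 5′ ends were exact at MIR484 and MIR3615 and spread at MIR320A, which had more alignments. Other 5′ ends occurred in fewer tables, at base 9 of MIR484 in up to 6 and at base 53 of MIR3615 in up to 4. All 7 MIR484 alignments above 0 in every table began at base 8 of the hairpin, the first base of the annotated miR-484. At MIR3615 all 5 began at base 51, the first base of the annotated miR-3615. MIR320A alignments above 0 in every table began at bases 47, 48, 49 and 50 in the 3p arm, with 5, 12, 6 and 6 alignments. No alignment began at base 1 of any of the hairpins. Base 1 is the first base of the annotated hairpin, and the annotated gene starts given above did not fall on it.

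**Figure D1:**
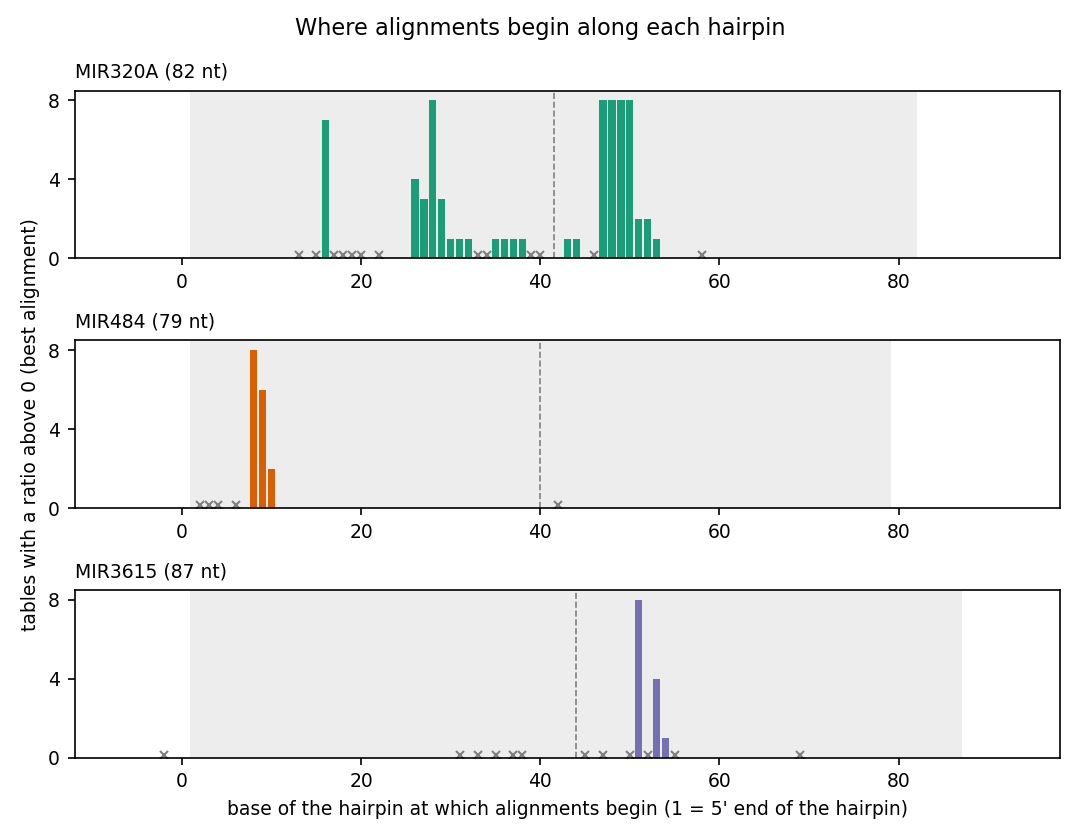
Where alignments of 16 to 42 nt begin along each hairpin. The x axis is the hairpin base, counted from its 5′ end, and the bar height is the number of tables, out of 8, in which the best alignment with that 5′ end had a ratio above 0. Crosses mark 5′ ends listed only with a ratio of 0, the shaded area is the hairpin and the dashed line its midpoint. MIR484 has its bars at bases 8 to 10, MIR3615 at bases 51, 53 and 54, and MIR320A has 4 neighbouring full bars at bases 47 to 50.

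Alignments with a ratio above 0 were rare beside the hairpins, although others were listed. Within 300 nt on either side, no alignment of either strand near MIR320A or MIR484 had a ratio above 0 in any table. Near MIR3615, 1 same-strand alignment upstream and 3 downstream did, each in 1 table. Listed alignments were more, with 36 downstream of MIR3615 on its own strand. On the opposite strand 15 were listed upstream of MIR320A and 10 upstream of MIR484. Each flanking alignment was listed in at most 3 tables, and a ratio of 0 speaks only of the numerator. On the opposite strand of the hairpins themselves, 2 alignments were listed at MIR484 and none at MIR320A or MIR3615.

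To set the hairpins beside the rest of the small RNAs, alignments were grouped into stacks. To form a stack, 3 or more alignments, each 20 to 24 nt long and above 0 in every one of the 8 tables, had to begin at the same base, and stacks within 8 nt of each other were joined. The genome held 523 stacks. Where the 5′ ends of neighbouring stacks of the same strand were separated by 30 to 48 nt, the spacing of the arms of a microRNA hairpin, they were called a two-arm locus, and there were 62 such loci with 124 sides. Another 396 were single stacks. Each of the 3 hairpins held 1 stack, of 5 alignments at MIR484, 4 at MIR3615 and 19 at MIR320A, and none was part of a two-arm locus. The MIR320A stack had 4 5′ ends and the others 1 each. Of the two-arm sides, 7 of 124 (5.65%) had 4 or more, and their median was 1. The value of a stack in a table is the median log2 ratio of its alignments.

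All 3 hairpins were above 0 in 8 of 8 tables. The MIR484 stack had log2 ratios of 1.41 and 3.29 at 3 d, then 2.10, 3.03 and 2.80 at 13 d, followed by 1.33, 2.41 and 2.47 at 31 d. MIR3615 had 1.92 and 4.79 at 3 d, then 1.94, 2.61 and 1.86 at 13 d, followed by 0.70, 1.42 and 2.12 at 31 d. MIR320A had 1.47 and 2.74 at 3 d, then 2.10, 2.52 and 1.42 at 13 d, followed by 1.23, 1.67 and 2.19 at 31 d. In every hairpin the second 3 d table, replicate 3, held the highest value and the first 31 d table the lowest of all 8.

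The two-arm sides shared the high values at 3 d but not the later ones. Their median log2 ratio per table was 0.88 and 2.42 at 3 d, then -1.14, -0.99 and -2.10 at 13 d, and -0.90, -1.32 and -0.86 at 31 d. All 3 hairpins lay above this median in 8 of 8 tables, by 0.33 to 2.37 at 3 d and by 1.60 to 4.90 at 13 and 31 d.

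**Figure D2:**
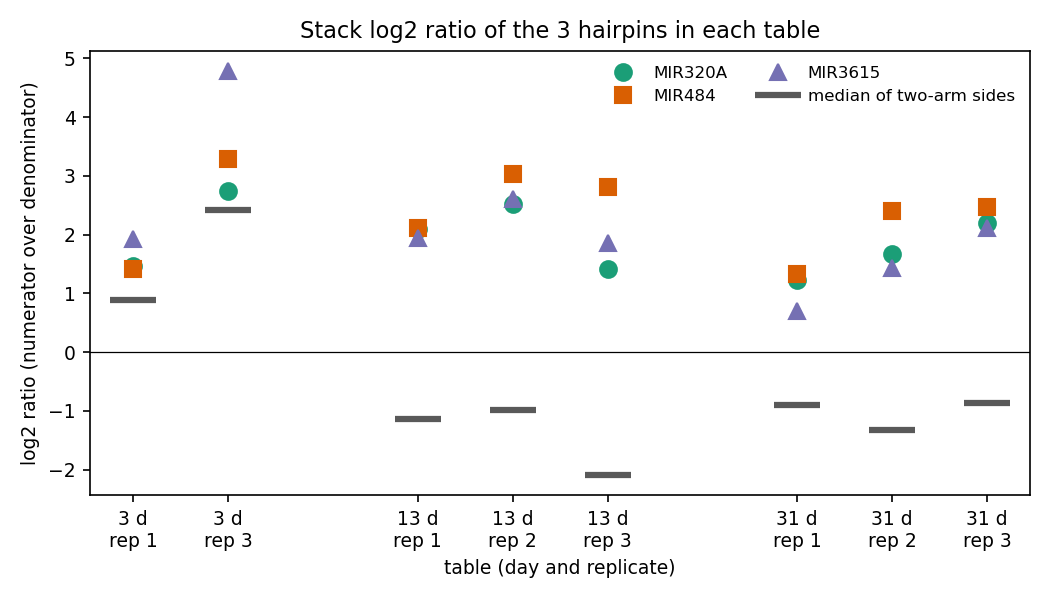
Stack log2 ratio (y axis, numerator over denominator) of each hairpin in each of the 8 tables (x axis, by day and replicate), with the median of the 124 two-arm sides as a bar. The hairpins lie between 0.70 and 4.79 in all tables, while the two-arm median is 0.88 and 2.42 at 3 d and between -2.10 and -0.86 afterwards.

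Tested against 0 with limma over all 523 stacks (day means, Benjamini-Hochberg adjustment), all 3 hairpins passed at each time. At 3 d, where 42.1% of all stacks were called higher, the MIR3615 stack averaged 3.35 on the log2 scale (SE 0.70, n = 2 tables, limma adjusted p = 0.000115). MIR484 had 2.35 (SE 0.69, limma adjusted p = 0.00614) and MIR320A 2.10 (SE 0.69, limma adjusted p = 0.0121). Tables were shifted as a whole at that time, and after each was centred on its median over all alignments the 3 d values of MIR484 and MIR320A were 1.25 and 1.01 and did not pass (limma adjusted p = 0.369 and 0.503). Without replicate 3 none of the hairpins passed at 3 d, with 1.41 for MIR484, 1.92 for MIR3615 and 1.47 for MIR320A.

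At 13 d, 14.0% of all stacks were called higher. MIR484 averaged 2.65 ± 0.48, a 6.26-fold ratio, MIR3615 2.14 ± 0.41 and MIR320A 2.01 ± 0.56 (SD of the log2 ratio, n = 3 tables each; limma adjusted p = 2.4e-05, 0.000699 and 0.00126). The calls at this time held under every alternative tried.

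At 31 d, 9.56% of all stacks were called higher. MIR484 averaged 2.07 ± 0.64, MIR320A 1.70 ± 0.48 and MIR3615 1.41 ± 0.71 (SD, n = 3 tables each; limma adjusted p = 0.001, 0.00725 and 0.0281). The MIR3615 call was lost with the table of replicate 2 or 3 left out (1.41 and 1.06), and that of MIR320A with the same tables left out (1.71 and 1.45). The MIR3615 call was also lost after centring on all alignments (1.21, limma adjusted p = 0.11) and with the replicate number as a block (1.41, limma adjusted p = 0.0536).

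In the order of all stacks, MIR484 and MIR320A rose after 3 d and MIR3615 fell. Counted from the highest numerator-over-denominator ratio, MIR484 ranked 66th of 523 stacks by its 3 d mean, 24th at 13 d and 26th at 31 d. It was above 108 of the 124 two-arm sides at 3 d, 120 at 13 d and 118 at 31 d. MIR320A ranked 102nd, 36th and 30th and was above 93, 118 and 118 two-arm sides. MIR3615 took the opposite course in rank, at 14th, 33rd and 47th, and was above 123, 118 and 113 two-arm sides. The order among the 396 single stacks changed likewise. MIR484 was above 348, 377 and 377 of them, MIR320A above 328, 369 and 374, and MIR3615 above 384, 371 and 363. Counted from the lowest ratio, as would apply if the tables ran the other way, the ranks were 458th, 500th and 498th for MIR484, 422nd, 488th and 494th for MIR320A, and 510th, 491st and 477th for MIR3615. The highest stack in each of the 8 tables was chr5:31511239-31511265 on the plus strand, with log2 ratios of 6.02 to 10.59. Over the two-arm sides as a whole, 66 of 124 were called higher and 3 lower at 3 d. At 13 d 13 were called higher and 67 lower, and at 31 d 11 higher and 58 lower. Of the 396 single stacks, 151 were called higher and 38 lower at 3 d, 57 higher and 164 lower at 13 d, and 36 higher and 171 lower at 31 d.

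**Figure D3:**
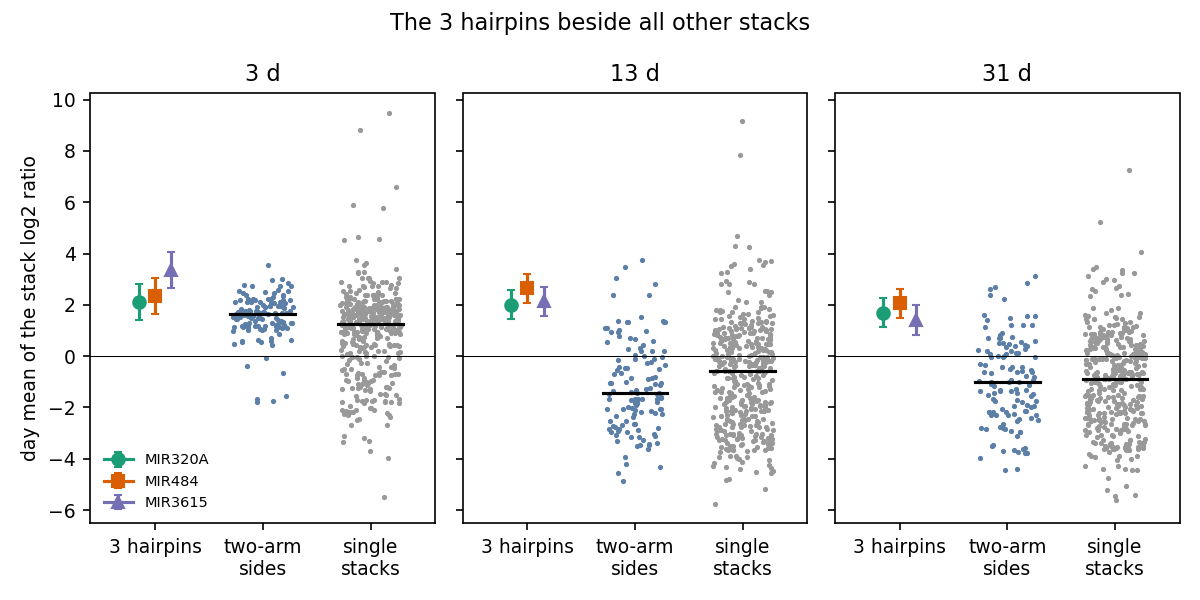
Day means of the stack log2 ratio (y axis) of the 3 hairpins with their SE from limma, beside each of the 124 two-arm sides and 396 single stacks, with black bars at the class medians, at 3, 13 and 31 d. The two-arm median is 1.64 at 3 d, -1.44 at 13 d and also below 0 at 31 d; the hairpins lie between 1.41 and 3.35.

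The distance to the two-arm sides was tested itself, by subtracting their median from every stack of the same table before the same limma fit. At 13 d MIR484 lay 4.05 log2 units above that median (SE 0.40, n = 3 tables, limma adjusted p = 1.65e-05), MIR3615 3.55 (SE 0.39, limma adjusted p = 3.89e-05) and MIR320A 3.42 (SE 0.32, limma adjusted p = 1e-05). At 31 d these distances were 3.10 for MIR484, 2.44 for MIR3615 and 2.73 for MIR320A (limma adjusted p = 0.000114, 0.000375 and 7.19e-05). Relative to the same median, 42.1% of all stacks were called higher at 13 d and 31.9% at 31 d, so passing here is common. At 3 d 4.21% of stacks were called higher, and MIR3615 was one of them, at 1.71 (SE 0.48, limma adjusted p = 0.0231). MIR484 and MIR320A did not pass at 3 d, at 0.70 and 0.46 (limma adjusted p = 0.402 and 0.485). Without replicate 3, MIR3615 at 3 d was 1.04 and did not pass (limma adjusted p = 0.332).

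As deposited, the values of the hairpins did not pass a test between days. The differences of 13 d minus 3 d were 0.30 for MIR484, -1.22 for MIR3615 and -0.09 for MIR320A (SE 0.90, 0.90 and 0.89; limma adjusted p = 0.779, 0.227 and 0.928). For 31 d minus 3 d they were -0.28, -1.94 and -0.41 (limma adjusted p = 0.787, 0.0521 and 0.693), and for 31 d minus 13 d -0.58, -0.72 and -0.31 (limma adjusted p = 0.936, 0.895 and 0.948). Over all 523 stacks, 64.1%, 62.9% and 0.382% were called in either direction in these contrasts. Leaving out replicate 1 of 3 d, which leaves that day 1 table assumed to vary like the others, MIR3615 passed with -2.65 for 13 d minus 3 d and -3.37 for 31 d minus 3 d. It also passed for 31 d minus 3 d without replicate 3 of 13 d (-1.94, limma adjusted p = 0.0347). Relative to the two-arm median, where 53.9%, 54.3% and 0.765% of stacks were called in the 3 contrasts, 13 d minus 3 d was 3.35 for MIR484, 1.84 for MIR3615 and 2.97 for MIR320A, and each passed (limma adjusted p = 0.00132, 0.0271 and 0.000642). The MIR3615 difference did not pass without replicate 1 of 3 d (1.18), without replicate 2 (1.81) or 3 (1.64) of 13 d, or when set against single stacks (0.83). The direction of the differences as deposited depended on how the tables were centred, with MIR320A at 1.63 for 13 d minus 3 d after centring on alignments of 20 to 24 nt (limma adjusted p = 0.0447).

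The members were close to each other after 3 d. MIR484 exceeded MIR320A in 7 of 8 tables, by 0.44 ± 0.47 on average (SD, n = 8 tables). MIR484 also exceeded MIR3615 in all 6 tables of 13 and 31 d, by 0.51 ± 0.40 at 13 d and 0.65 ± 0.31 at 31 d (SD, n = 3 each), but lay below it in both tables of 3 d, by 0.52 and 1.49. MIR3615 and MIR320A differed by 0.12 ± 0.30 at 13 d and -0.28 ± 0.23 at 31 d (MIR3615 minus MIR320A). No test was run on these differences. Over the 8 tables, which share library-wide shifts, Pearson's r between stacks was 0.73 for MIR484 with MIR3615, 0.75 for MIR484 with MIR320A and 0.83 for MIR3615 with MIR320A.

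Single alignments had levels of the same order. In the authors' deposited tables, the alignment of 22 nt with the exact miR-484 sequence, chr16:15737158-15737179, had ratios of 2.99 and 14.8 at 3 d, then 4.76, 14.9 and 6.98 at 13 d, followed by 2.51, 5.30 and 5.99 at 31 d. For the 21 nt alignment of the exact miR-3615, chr17:72744802-72744822, the authors' deposited tables give 3.99 and 16.7 at 3 d, then 4.21, 6.95 and 9.49 at 13 d, followed by 2.25, 4.59 and 6.87 at 31 d. Both were above 1 in every table. The MIR320A form of 22 nt from base 50 to 71, chr8:22102486-22102507, had in the authors' deposited tables ratios of 2.77 and 11.2 at 3 d, then 4.53, 13.9 and 6.47 at 13 d, followed by 2.80, 3.65 and 6.75 at 31 d.

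The 4 5′ ends of MIR320A can be compared at a fixed length of 22 nt. At 13 d the mean log2 ratio was 1.14 for the form beginning at base 47, 1.89 at base 48, 2.55 at base 49 and 2.89 at base 50. At 31 d the same forms had 1.24, 1.84, 1.70 and 2.04, and at 3 d 1.97, 1.90, 2.30 and 2.48. The form at base 50 was thus the highest of the 4 at each time, but their standard errors, 1.32 at 3 d and 1.08 later, exceed most of these steps, and no test between forms was run.

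The 5p arm of MIR320A gave values of both signs. Its 22 nt alignment from base 16 to 37 was above 0 in 7 tables. Its log2 ratio was 2.36 in the 1 table of 3 d that listed it, 4.20, 0.98 and 0.75 at 13 d, and -0.29, -1.43 and -1.02 at 31 d. The 20 nt alignment from base 28 to 47, which runs through the hairpin's middle, was above 0 in all 8 tables with log2 ratios from -4.00 to 2.42. Neither passed the alignment test described next at any time tested. The 5p arm as split here at the midpoint also holds forms beginning at bases 26 to 32, which run through the hairpin's middle. Its medians therefore do not describe the form from base 16 alone. Over the alignments with a ratio above 0, the median log2 ratio of the 5p arm was above 0 in 3 of 8 tables. It ranged from -1.58 to 1.28, and the median of the 3p arm was above 0 in 8 of 8 tables, from 0.09 to 2.45. With ratios of 0 ranked lowest, the 5p median ratio was 0 in 5 of 8 tables, and the 3p median lay below 0 on the log2 scale in 1 of 8.

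Tested one by one over all alignments of the genome, few of the hairpins' alignments passed. The members had 46 alignments tested at 3 d, of which 1 was called higher and 0 lower, where 3.26% of all alignments were called higher. At 13 d 4 of 55 were called higher, against 6.10% of all, and at 31 d 0 of 55, against 0.281%. Of the member alignments 17, 18 and 14 had an unadjusted limma p under 0.05, and 37 of 46, 49 of 55 and 45 of 55 had a mean above 0. Neither share was counted over all alignments, whose median log2 ratio was -0.30, 0.19 and 0.36 in the same order. Many member alignments are also overlapping forms of the same hairpin, so these counts cannot be read as an excess at the members. The call at 3 d was the 24 nt alignment of MIR3615, at 4.27 (limma adjusted p = 0.0373). At 13 d the calls were the 26 nt alignment of MIR3615 at 3.72 and the MIR320A alignments of 19, 20 and 21 nt from base 50, at 3.34, 3.33 and 3.28. Limma gave all alignments a common SD of 1.87, so that sizes under 4.11 at 3 d, 3.003 at 13 d and 3.62 at 31 d could not be called. Without replicate 3 of 3 d, or replicate 1 or 3 of 31 d, none passed at 3 d. The count at 13 d was 0 without replicate 2 or 3 of 13 d, 2 without its replicate 1, 7 without either table of 3 d, and 1 and 10 without replicates 1 and 2 of 31 d. It was 14 when alignments under 18 nt were left out. Among alignments above 0 in all 8 tables, the calls numbered 1 at 3 d and 3 at 13 d with the replicate number as a block. Without the block they numbered 4 and 11. The share of all alignments called is given for the main fit only, so these changes are not separated from changes over all alignments.

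Values of MIR484 and MIR320A varied with read length, and not in the same way in every table; no slope was tested. For MIR484 reads beginning at base 8, the mean log2 ratio at 3 d was 0.96 at 21 nt, 2.74 at 22 nt and 3.61 at 26 nt. At 31 d it was 2.26 at 21 nt, 2.10 at 22 nt, 0.67 at 23 nt and -0.26 at 26 nt. For MIR320A reads beginning at base 48, the 3 d mean was -0.07 at 20 nt, 1.90 at 22 nt and 3.37 at 26 nt, while at 31 d it was 1.71, 1.84 and 0.19. The last of these averages tables that went apart, with an SD of 2.95 over 3 tables. In 31 d replicate 3 the MIR320A forms had 1.40 at 20 nt, 2.33 at 22 nt, 2.87 at 26 nt and 3.28 at 27 nt, whereas 31 d replicate 2 had -2.96 at 26 nt. The lowest long reads came from 1 table, 31 d replicate 2, at -2.59 for the 26 nt form of MIR484 and -5.50 for the 27 nt form of MIR320A. In that table the median over all alignments above 0 in 8 tables was -3.44 at 26 nt and -4.17 at 27 nt. Relative to the median of its length, the MIR484 form was at 0.85 and the MIR320A form at -1.33.

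MIR3615 forms from 21 to 25 nt averaged 2.05, 0.67, 2.03, 0.96 and 1.87 at that time, and all 5 were above 0 in 8 of 8 tables. The 21 nt form, which is the annotated miR-3615, and the form ending 1 nt later thus differed more than the forms at 21 and 25 nt, although their SD over the 3 tables was 0.82 and 0.31.

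Other small RNAs of the same lengths moved too. The median over all alignments above 0 in 8 tables was, at 3 d, 1.31 at 22 nt and 0.21 at 26 nt (means of the tables' medians). At 31 d it was -1.14 at 22 nt and -1.18 at 26 nt, the latter from table medians of 0.20, -3.44 and -0.28. Set against alignments of their own length, the 22 nt forms of MIR484 at base 8, MIR3615 at base 51 and MIR320A at base 48 were higher in 8 of 8 tables each. At 13 d this distance was 3.86 ± 1.27 for MIR484, 2.77 ± 1.03 for MIR3615 and 2.77 ± 0.60 for MIR320A (SD, n = 3 tables). At 3 d it was 1.42, 1.30 and 0.59. The shortest forms of MIR320A, at 16 nt, were below the median of their length in 7 of 8 tables. What part read length or library preparation has in these differences was not tested.

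**Figure D4:**
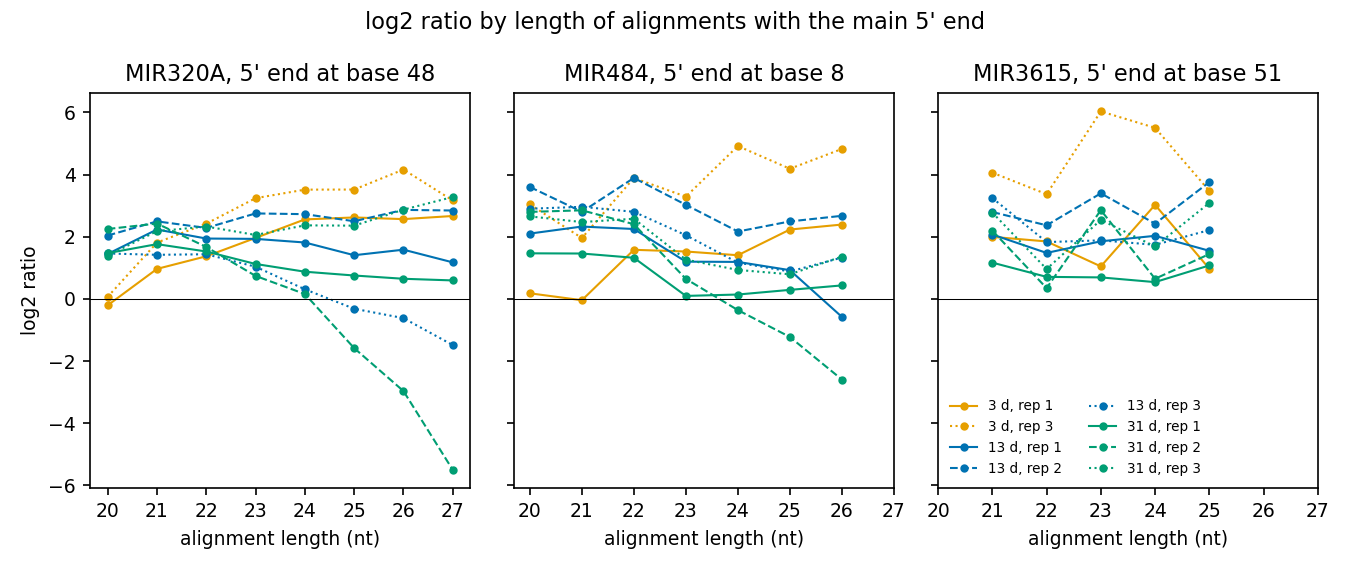
log2 ratio (y axis) against alignment length in nt (x axis) for alignments with the main 5′ end of each hairpin, 1 line per table, coloured by day and dashed by replicate. MIR484 and MIR320A lines are higher at the longest than at the shortest lengths at 3 d. They drop in 31 d replicate 2, to -2.59 at 26 nt and -5.50 at 27 nt. The medians of all alignments of those lengths in that table, not drawn, are -3.44 and -4.17. The MIR320A line of 31 d replicate 3 reaches 3.28 at 27 nt, and MIR3615 lines stay above 0 at every length.

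The stacks whose 8 values ran most like those of the hairpins were mostly single stacks, as were 396 of all 523 stacks. For MIR484 they were chr11:62623043-62623066 on the minus strand (Pearson's r = 0.90), chr1:175937536-175937557 on the minus strand, a two-arm side (r = 0.86), and chr19:6416444-6416466 on the minus strand (r = 0.82). For MIR3615 they were chr5:180528922-180528944 on the plus strand (r = 0.95), chr5:180524451-180524473 on the minus strand (r = 0.95) and chr17:40666285-40666308 on the plus strand (r = 0.92). MIR320A was most like chr7:145694484-145694507 on the plus strand (r = 0.96), chr5:79946843-79946866 on the minus strand (r = 0.95) and the same stack on chromosome 17 (r = 0.93). That stack had mean log2 ratios of 2.84 at 3 d, 2.48 at 13 d and 1.80 at 31 d. Each r is over 8 tables, chosen as the highest among all other stacks, and the tables' common shifts enter all of them.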

How the data were processed

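The authors' deposited tables list, for each Dox and water pair, distinct alignments by position and strand with a ratio of 1 library to the other. Alignment was with Bowtie2 2.2.9 on hg19 (GRCh37), per the submitters' processing notes, and per the labels' protocols libraries were gel-selected to a narrow size range. The ratio is 0 where the numerator had no reads. The 32 other value columns carry no library name and enter no result, so no depth or counting interval is given. The untreated library was not analysed here.

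The log2 values of ratios above 0 were summarised as the median of a stack, or used for single alignments, and tested with limma (version 3.58.1, R 4.3.3, robust option, 3 day means over 8 tables, adjusted p under 0.05). Standard errors draw on the spread of all stacks or alignments, p-values of overlapping alignments are not independent, and the error of the two-arm median is not included. The fits were also run on simulated data with independent noise of a common SD and features changed by known sizes. Those data held no table-wide shifts, so they do not test how the fits handle such shifts. Ratios of 0 have no log2 value and were left out. The labels do not say that a replicate number marks a shared culture or day. Over 523 stacks, deviations from the day means correlated at r = 0.45, 0.17 and 0.16 in the same-number pairs 1, 2 and 3 of 13 d with 31 d. Pairs of different numbers gave -0.31 to 0.20, so only number 1 lay above them. Deviations within a day sum to 0, so these r are not independent. Whether the numbers pair the tables is thus not settled, and the tests have no block unless one is named. With 3 d, whose 2 tables deviate as mirror images by construction, r was 0.24 for number 1 and -0.03 and -0.09 for number 3. Values with the number as a block stand where they change a call. RNAfold was from ViennaRNA 2.7.2.

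The members and stacks were chosen with earlier results of these data known. Named alignments were those above 0 in the most tables, at most 3 per arm, ties by length nearest 22 nt. Named stacks elsewhere were the 3 with the highest r. The forms compared by length or 5′ end, and the alignments that passed the test, were named after their values were seen. Hairpin bases come from window offsets, since the RefSeq hairpins of MIR484 and MIR3615 have the windows' lengths. Coordinates were not converted between builds, and positions are 1-based on hg19.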

Additional observations from a re-analysis of the deposited data

Results flagged for a closer look

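Relative to the median of the two-arm sides of the same table, the hairpins differed between days by limma's contrast over all 523 stacks, whose background was 53.9% of stacks called in either direction for 13 d minus 3 d and 54.3% for 31 d minus 3 d. For 13 d minus 3 d the difference was 3.35 for MIR484 (SE 0.64, limma adjusted p = 0.00132), 2.97 for MIR320A (SE 0.50, limma adjusted p = 0.000642) and 1.84 for MIR3615 (SE 0.62, limma adjusted p = 0.0271). For 31 d minus 3 d it was 2.40 for MIR484 (SE 0.64, limma adjusted p = 0.00948) and 2.27 for MIR320A (SE 0.50, limma adjusted p = 0.00361), while MIR3615 had 0.74 and did not pass (limma adjusted p = 0.329). The hairpins' own values did not pass between days, and the two-arm median was 0.88 and 2.42 at 3 d and below 0 in all 6 later tables. No group of tables had the 4 members that a search for single outlying tables needs.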

How the results depend on the processing

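Of 135 refits of the per-day stack values, 117 kept direction and call and 18 lost the call, none of them at 13 d. At 3 d MIR484 gave 1.25 centred on all alignments, 1.14 centred on 20 to 24 nt and 1.06 when matched by length, and lost the call at 2.35 with each day fitted alone. MIR320A gave 1.01, 0.89, 0.77 and 2.10 under the same 4 settings. At 31 d MIR3615 lost the call when centred on all alignments (1.21), with the replicate number as a block (1.41) and without 13 d replicate 3 and 31 d replicate 2 together (1.41). Leaving out 1 table at a time gave 1.41 to 3.29 for MIR484, 1.92 to 4.79 for MIR3615 and 1.47 to 2.74 for MIR320A at 3 d, and 1.06 to 1.77 for MIR3615 and 1.45 to 1.93 for MIR320A at 31 d.

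Relative to the two-arm median, 90 of 91 refits of per-day values that passed kept the call, the 26 of MIR484 and MIR320A at 3 d stayed without one, and leaving out 1 table gave 1.04 to 2.37 for MIR3615 at 3 d. Of the differences between days on that scale, MIR3615 at 13 d minus 3 d lost the call relative to single stacks (0.83), to all stacks (1.14), without 13 d replicate 3 and 31 d replicate 2 together (1.64) and within 1.18 to 2.50 when leaving out 1 table. MIR484 at 31 d minus 3 d lost it relative to single stacks (1.97) and without 3 d replicate 1 (2.22, limma adjusted p = 0.0515), and spanned 2.08 to 2.83 when leaving out 1 table.

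Differences between days of the values as deposited, none of which passed, were less stable. Centring on 20 to 24 nt gave 2.02 for MIR484, 0.50 for MIR3615 and 1.63 for MIR320A at 13 d minus 3 d, then 1.77, 0.11 and 1.65 for 31 d minus 3 d, and 0.015 for MIR320A at 31 d minus 13 d. Of these, MIR484 at 13 d minus 3 d and both MIR320A differences from 3 d were past the threshold (limma adjusted p = 0.0489, 0.0447 and 0.0488). Matching by length gave 1.88 for MIR484 (limma adjusted p = 0.0503), 0.59 for MIR3615 and 1.75 for MIR320A, then 1.66, 0.14 and 1.85, and 0.11, with both MIR320A differences from 3 d past the threshold (limma adjusted p = 0.0294 and 0.026). Centring on all alignments gave 0.77 for MIR320A (13 d minus 3 d), and 0.61 for MIR484 and 0.49 for MIR320A (31 d minus 3 d). Without 13 d replicate 3 and 31 d replicate 2 together MIR320A gave 0.20. Leaving out 1 table gave -0.65 to 1.24, -2.65 to 0.21 and -0.73 to 0.55 for 13 d minus 3 d, and -1.22 to 0.66, -3.37 to -0.51 and -1.04 to 0.23 for 31 d minus 3 d, in the order MIR484, MIR3615 and MIR320A.

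The count of member alignments called higher went to 4 at 3 d and 11 at 13 d among alignments above 0 in all 8 tables, to 8 at 13 d after centring, to 14 at 13 d and 2 at 31 d with 18 nt or longer, and to 0 to 1 at 3 d and 0 to 10 at 13 d leaving out 1 table. The replicate block on alignments needs all 8 tables and gave 1, 3 and 0. No share of all alignments called is given for these changed settings, so the counts cannot be read as changes at the members alone. Over stacks the replicate block changed no call but that of MIR3615 at 31 d. Ranking ratios of 0 lowest put 1 of 8 arm values below 0 at MIR320A 3p, 1 at MIR3615 3p and 0 at MIR484 5p, and gave a median ratio of 0, with no log2 value, in 5 of 8 tables at MIR320A 5p. Matching by length, complete alignments and the joint omission of 2 tables were chosen after seeing the data. The causes of these changes were not tested, and unknown depth limits every value.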
